A study of Caenorhabditis elegans with 15 samples.

Results

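Intergenic spliced leader acceptor sites are places in the Caenorhabditis elegans genome where a spliced leader was joined to an RNA outside genes and far before the next gene the authors had annotated. They were taken as all rows that the authors' deposited table of splice acceptor sites labels intergenic, which are 5410 of 69542 sites. The others are 19102 trans sites at gene starts, 32276 cis sites at internal exons, 7468 antisense sites and 5286 undetermined sites. Every intergenic site lies more than 1000 bases from the next annotated gene downstream on its strand, with a smallest listed distance of 1001, a median of 3746 and a largest of 70467 bases.

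In trans-splicing, a short leader RNA donates its 5′ end to a pre-mRNA, replacing the stretch before the first acceptor site. SL1 is the leader that most trans-spliced C. elegans genes receive, and SL2 goes mainly to the later genes of an operon, in which several genes share a promoter. Because the stretch before the acceptor is discarded, a leader acceptor site marks the 5′ end of a mature RNA even where no gene model begins.

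The study expressed a tagged leader in chosen tissues and captured the RNA that carried the tag. Leader transgenes driven by the myo-3 promoter of body-wall muscle, with the G16C change in SL1, gave muscle libraries of L1 larvae (1), L2 larvae (1), dauers (2), young adults (2) and animals at day 12 (2), where young adult is day 1. The same tagged SL1 under the pan-neuronal rgef-1 promoter gave neuron libraries of day 12 animals (2) and young adults (2), and under the U2-3 promoter libraries of multiple tissues in a mixed-stage population (2). A single mixed-stage muscle library carried a tagged SL2 with the T5A change. Its title and strain name SL2 while its description names SL1. All strains were kept at 20 °C, and the day 12 animals of both tissues had been raised on 400 µM fluorodeoxyuridine, which blocks progeny, so age and drug cannot be told apart. Multiple-tissue and young adult animals differ in stage as well as in tissue.

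The site table holds 164667 to 793156 reads per library in neurons, 571844 to 11544706 in SL1-tag muscle and 2295681 and 3799790 in multiple tissues. The shallowest of all is day 12 neuron replicate 1 and the deepest dauer replicate 2. Of the 8 muscle markers, 6 are in the authors' gene table. Their summed level was 4205 to 24586 counts per 1000000 (CPM) in SL1-tag muscle, 19.7 to 245 in neurons and 34.1 and 38.8 in multiple tissues, and myo-3 had 0 reads in all 4 neuron libraries. Of the 9 neuron markers, 7 are in the table, and rgef-1 is not one of them. They summed to 1611 to 2651 CPM in neurons, within the range of 500 to 3558 CPM in SL1-tag muscle, and above the 357 and 379 CPM in multiple tissues, so this list does not set the neuron libraries apart from muscle, while the muscle list does. Germline markers reached 3770 and 3619 CPM in multiple tissues and at most 28.4 CPM elsewhere. The share of reads at cis sites also differed by tissue, at 12.8 to 39.8% in SL1-tag muscle, 50.6 to 54.2% in neurons and 3.95 and 3.91% in multiple tissues.

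Of the 5410 intergenic sites, 4913 held at least 1 of the 298110 intergenic reads and 497 held none in these 15 libraries. Most were seen rarely. Reads fell in a single library at 3146 sites, which is 64.03% of the sites with reads and accounts for 9.46% of the reads. The same proportion was 28.0% for trans, 53.2% for cis, 68.9% for antisense and 64.6% for undetermined sites. A further 1403 sites were read in 2 to 4 libraries, 311 in 5 to 9 and 53 in at least 10, and 3 sites were read in all 14 SL1-tag libraries. Both strands were used alike, with 2638 sites on the plus and 2772 on the minus strand.

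A small number of sites carried much of the signal. With each site's CPM (here reads per 1000000 reads at all sites of that library) averaged over the 9 groups, the strongest site held 6.88% of the intergenic level, the strongest 5 held 18.3%, the strongest 12 held 26.9% and the strongest 100 held 53.9%. In YA neurons, a term used from here for neurons of young adults, the sites read in both libraries made up 57.2 and 52.0% of the sites of replicates 1 and 2 but held 92.4 and 92.2% of their intergenic reads. Sites read in both libraries were 46.7 and 31.0% of those in day 12 neurons, 44.7 and 45.1% in young adult muscle, 19.6 and 30.1% in day 12 muscle, 16.01 and 61.1% in dauer muscle and 55.1 and 45.6% in multiple tissues, where they held 91.6 and 92.8% of the intergenic reads. At trans sites the same measure was 51.1 to 95.9% over these groups.

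The share of all site reads that fell at intergenic sites was highest in neurons and lowest in multiple tissues. It was 3.45 and 3.70% in day 12 neurons and 4.35 and 4.62% in YA neurons. In muscle it was 1.44% in L1, 1.10% in L2, 0.615 and 0.758% in dauers, 0.264 and 0.284% in young adults and 1.38 and 1.43% on day 12. Multiple tissues gave 0.0761 and 0.0776%. No muscle library reached any neuron library, and no library with a tissue promoter came down to multiple tissues.

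**Figure D1:**
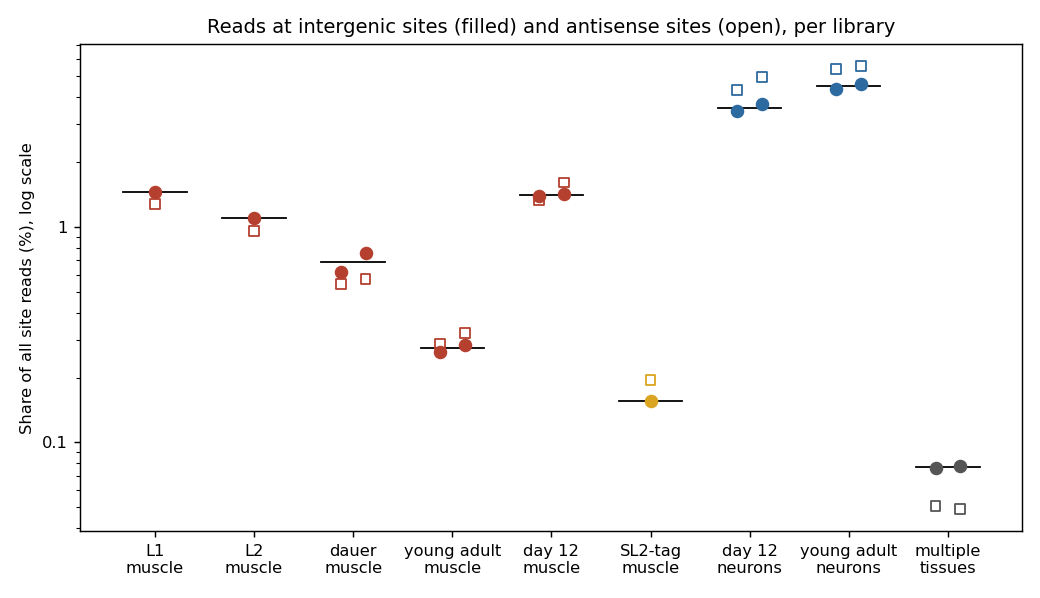
Share of all site reads (%, log scale) at intergenic sites (filled circles, with the group mean as a line) and at antisense sites (open squares) in each of 15 libraries. The neuron libraries lie at 3.45 to 4.62%, the SL1-tag muscle libraries at 0.264 to 1.44% and the multiple-tissue libraries at 0.0761 and 0.0776%, and the antisense share is likewise highest in neurons and lowest in multiple tissues.

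Over the adult libraries, muscle averaged 0.840 ± 0.654% and neurons 4.03 ± 0.545% (SD, n = 4 each), a difference of -3.19 percentage points. A two-sided exact permutation test over libraries gave p = 0.0286, the smallest this design allows, and 0.0857 after Benjamini-Hochberg adjustment over 3 tests of the share. With all 8 SL1-tag muscle libraries the difference was -3.12 points (exact permutation p = 0.00202, adjusted p = 0.00606), and this p is again the smallest possible. That test sets larval, dauer and adult muscle against adult neurons, so it mixes stage with tissue. The 12 libraries with a tissue promoter averaged 1.95 ± 1.61% and the 2 multiple-tissue libraries 0.0769 ± 0.00102%, a difference of 1.87 points (exact permutation p = 0.0769, adjusted p = 0.115). Other reads outside gene starts moved with these shares. Antisense sites took 4.31 to 5.57% of reads in neurons and 0.0509 and 0.0490% in multiple tissues, and the ratio of intergenic to antisense reads stayed within 0.745 to 1.58 over the 15 libraries. The part of whatever moves both classes together in the intergenic share was not tested.

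Day 12 and young adult shares went opposite ways in the 2 tissues. The mean over day 12 libraries was 2.49 ± 1.26% and over young adult libraries 2.38 ± 2.43% (SD, n = 4 each; exact permutation p = 0.886, adjusted p = 0.886). Muscle stood 1.13 points higher on day 12, with both day 12 libraries above both young adult ones, while neurons fell by 0.907 points, with both day 12 libraries below both young adult ones. The difference of 2.04 points between the tissues had an exact permutation p of 0.0556, the smallest that 36 arrangements allow. The reads come from PCR and carry no molecular identifiers, so intervals and lower bounds given here cover counting error only.

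The number of different sites also depended on depth. Thinned to the 164667 site reads of the shallowest library, day 12 neurons held an expected 1413 and 1690 intergenic sites and YA neurons 753 and 786. L1 muscle held 290, L2 194, dauers 335 and 165, young adult muscle 160 and 153 and day 12 muscle 476 and 294, against 52 and 50 in multiple tissues. Before thinning these numbers were 1413 and 2131, 998 and 1098, 347, 251, 843 and 221, 318 and 315, 561 and 366, and 216 and 261 in the same order. Per 100 trans sites of the thinned libraries there were 21.9 to 26.9 intergenic sites in neurons, 3.11 to 9.33 in SL1-tag muscle and 0.939 and 0.904 in multiple tissues.

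Intergenic sites were spread over all 6 chromosomes, with 25.1% on the X chromosome, compared with 12.9% of trans, 14.1% of cis, 12.6% of antisense and 15.9% of undetermined sites. The X chromosome also holds 22.4% of the span in which a site could be called intergenic, that is, bases outside genes and more than 1000 bases before the next gene in the WBcel235 annotation of Ensembl release 115. Small RNA genes, such as those of piRNAs, microRNAs and tRNAs, were not counted as genes for this span. The sites counted are all those of the authors' label, and only 81.8% of them have no gene on either strand in this release. Some counted sites therefore lie outside the span. Per megabase of that span there were 122 sites on X, 120 on I, 118 on II, 125 on III, 110 on V and 69.5 on IV, so the density on X lay within the range of I, II, III and V, and chromosome IV stood lowest. The effect of leaving small RNA genes out, on IV or elsewhere, was not tested. The X share of intergenic reads was 19.7 to 22.2% in neurons, 10.8 to 25.1% in SL1-tag muscle and 3.83 and 3.66% in multiple tissues. The X share of trans reads moved the same way, at 9.86 to 14.1%, 7.62 to 11.4%, and 1.38 and 1.36%.

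**Figure D2:**
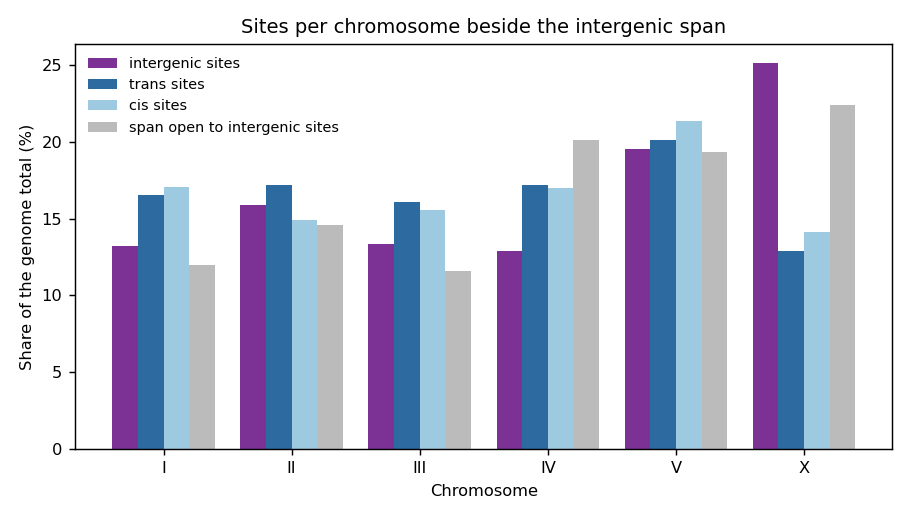
Share of the genome total (%) on each chromosome for intergenic sites, trans sites, cis sites and the span open to intergenic sites (small RNA genes not counted as genes). The X bar for intergenic sites (25.1%) stands near that of the open span (22.4%) and above those of trans (12.9%) and cis sites (14.1%), and on chromosome IV the intergenic bar is below the span bar.

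Some sites that the authors labelled intergenic lie in an annotated gene now. By position the deposited coordinates fit WBcel235: 90.6% of cis sites on either strand fall at an exon start of release 115, the plus-strand position being the base before the exon. In that release 4427 intergenic sites (81.8%, with 64.02% of the intergenic reads) still have no gene on either strand, where small RNA genes are again not counted. Another 464 lie opposite a gene, 444 inside a protein-coding gene, 44 inside a noncoding gene and 31 inside a pseudogene. The 44 noncoding ones are 0.813% of the sites and held 21.2% of the reads.

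Within 3 bases of the start of a noncoding gene lie 16 sites, 15 of them with reads, and they account for 59011 reads, 19.8% of the intergenic total. Without dauer replicate 2, which has the most reads, this was 13.2%, and the mean of the 15 library shares was 14.1%. The share was 10.4% in L1, 19.3% in L2, 28.5 and 35.6% in dauers, 17.4 and 22.0% in young adult muscle and 8.99 and 15.7% in day 12 muscle. In neurons it was 2.90 and 2.50% on day 12 and 9.31 and 8.84% in young adults, and in multiple tissues 13.6 and 16.6%. The dauer libraries were therefore highest and the day 12 neuron libraries lowest among the SL1-tag libraries. Of the 16 sites 12 were tested: edgeR called 4 as higher and 0 as lower with young adult muscle set against multiple tissues, 4 and 0 with YA neurons set against multiple tissues, and 2 and 2 with young adult muscle set against YA neurons. Over all tested sites the shares called higher and lower were 2.28 and 0.897%, 9.8 and 6.08%, and 4.22 and 5.7% in these comparisons. The medians of their log2 fold changes were 5.31, 0.69 and 1.38, where the median of all tested sites was 0 in each. Summed over libraries, F19B10.14 held 31332 reads, Y54G9A.17 7253, Y110A7A.24 6714, M04F3.7 4122 and W07G1.25 2881. Dauer replicate 2 gave 25778 of the F19B10.14 reads, and without it F19B10.14 held 5554, fewer than Y54G9A.17 at 7177 and Y110A7A.24 at 6083.

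**Figure D3:**
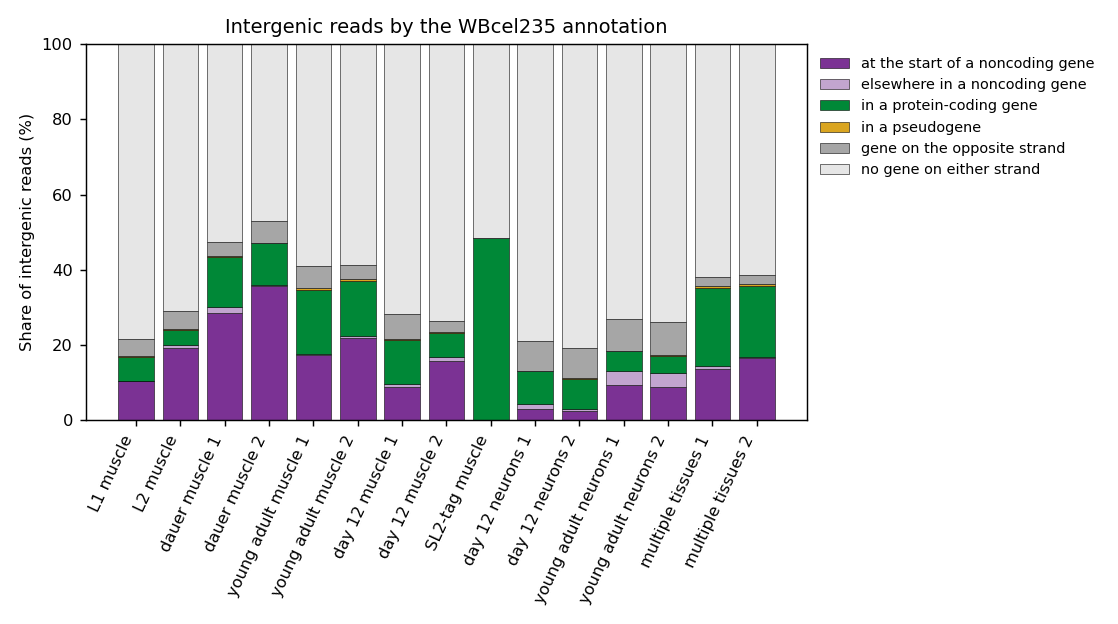
Share of each library's intergenic reads (%, stacked bars adding to 100) by what WBcel235 release 115 has at the site. Starts of noncoding genes take 28.5 and 35.6% in the dauer libraries and under 3% in the day 12 neuron libraries, and sites with no gene on either strand are the largest class in every library.

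Protein-coding genes now begin at 70 of the sites, 50 of them with reads, which hold 2.32% of intergenic reads. The 3 with the highest mean CPM are X:7645411 (-), the upstream start of F26A10.2; II:11724203 (+), the upstream start of ldh-1, the lactate dehydrogenase gene; and III:5975056 (-), the upstream start of mlp-1, a muscle LIM domain protein gene. In each of these genes other transcripts of release 115 begin further downstream, at the trans sites of the authors' table.

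At mlp-1 the upstream site was read 0 times in L1, 0 in L2, 195 and 765 times in dauers, 211 and 415 times in young adult muscle and 20 and 237 times in day 12 muscle, and it had 0 reads in every neuron and multiple-tissue library. The downstream trans sites of the gene, the nearest 1378 bases away, were read 826, 869, 1169 and 8773, 1027 and 2451, and 316 and 1349 times in the same muscle libraries. They were read only 3 and 12 times in multiple tissues, 0 and 6 in YA neurons and 1 and 1 in day 12 neurons. That is too few to judge use of the upstream start outside muscle. The upstream site thus gave 14.3 and 8.02% of the gene's tagged reads in dauers, 17.0 and 14.5% in young adults and 5.95 and 14.9% on day 12, while 0 reads in L1 and L2 allow at most 0.363 and 0.345%. Both the L1 and the L2 library lie below all other SL1-tag muscle libraries in the use of this start.

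In edgeR's quasi-likelihood test the mlp-1 upstream site was lower in larval muscle (the mean of L1 and L2) than in young adult muscle, by at least 239-fold when 3 reads over the larval libraries are taken as the limit (edgeR adjusted p = 0.0392). Young adult muscle stood at least 339-fold above multiple tissues (edgeR adjusted p = 0.00812) and at least 84.8-fold above YA neurons (edgeR adjusted p = 0.00942). The calls were lost in every fit that left out 1 library of a compared group. The larval libraries have no replicates of their own, so their spread is taken from the other groups.

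The upstream starts of the other 2 genes were read outside muscle too. At F26A10.2 the intergenic site took 1338 of the gene's reads and the trans site 16, with a mean level of 140 CPM in day 12 neurons, 178 CPM in YA neurons, 126 CPM in day 12 muscle, 35.8 CPM in dauers, 6.43 CPM in young adult muscle and 0 in L1, L2 and multiple tissues. At ldh-1 the intergenic site took 192 reads in L1, or 31.6% with the 416 at the trans sites, and 0 beside 675 in L2. Its share was 8.64 and 0% in dauers, 4.78 and 4.30% in young adult muscle, 27.1 and 10.6% in day 12 muscle, 25.4 and 8.06% in day 12 neurons, 12.5 and 8.75% in YA neurons and 2.50 and 1.40% in multiple tissues. The pair of dauer libraries thus differ in whether the site was read at all.

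The 12 strongest sites by CPM averaged over the 9 groups were called by rank from 1 to 12. None has an annotated protein-coding gene on its strand: 8 have no gene there, 3 start noncoding genes and 1 lies inside a noncoding gene. Levels were highest in YA neurons at 9 of the 12, and 9 had 0 reads in both multiple-tissue libraries. YA neurons weigh heavily in that mean, and none of the 12 was called between day 12 and YA neurons by edgeR. The 12th site had a mean of 113 CPM and the next, II:7886764 (+), 107 CPM.

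**Figure D4:**
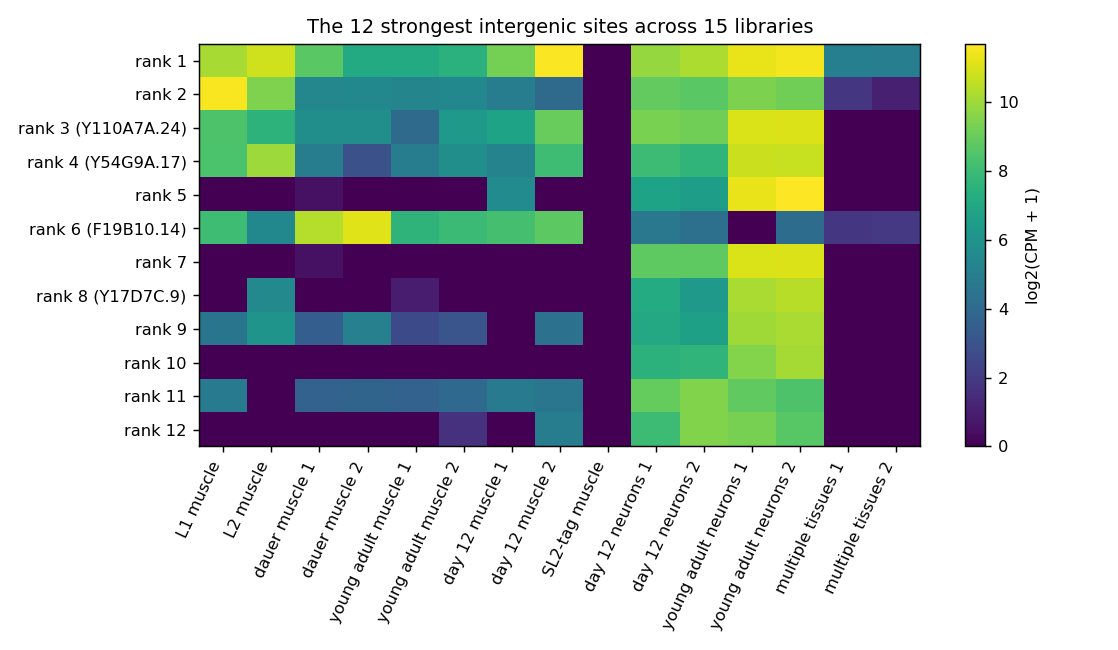
Level of the 12 strongest intergenic sites, as log2(CPM + 1), in 15 libraries, with ranks from the top and the current noncoding gene where there is one. Ranks 5, 7, 8, 10 and 12 are bright in the 4 neuron libraries and at 0 in multiple tissues and in most muscle libraries. Among the exceptions, rank 5 had 49.0 CPM in day 12 muscle replicate 1 and rank 8 had 43.9 CPM in L2. Rank 12 had 29.1 CPM in day 12 muscle replicate 2. Rank 6 is brightest in dauers, and every rank is at 0 in the SL2-tag library.

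Rank 1, III:12972770 (+), lies 6391 bases before frg-1, the next gene on its strand. Its level was 1134 CPM in L1, 1831 in L2, 413 and 141 in dauers, 142 and 176 in young adult muscle and 607 and 3119 in day 12 muscle. It was 911 and 1207 CPM in day 12 neurons, 2552 and 2912 in YA neurons and 31.8 and 31.1 in multiple tissues. All 14 SL1-tag libraries therefore read it, with multiple tissues lowest, and the day 12 muscle libraries lie far apart.

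Young adult muscle averaged 159 ± 24.1 CPM at rank 1 and YA neurons 2732 ± 255 CPM (SD, n = 2 each). Its log2 fold change of muscle over neurons, edgeR's value after TMM scaling where CPM is unscaled, was -4.13 ± 1.03 (SE, edgeR adjusted p = 0.0122). That call was lost in 3 of 4 fits without 1 library, with DESeq2's size factors and by DESeq2's test, and the value fell in size to -2.59 at the least. The fold change of YA neurons over multiple tissues was 6.24 ± 1.14 (SE, edgeR adjusted p = 0.00079). Young adult muscle against multiple tissues gave 2.12 ± 0.94 and did not pass (edgeR adjusted p = 0.287), nor did day 12 against young adult muscle at 2.93 ± 0.97 (edgeR adjusted p = 0.24).

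Rank 2, V:13639995 (-), lies 5746 bases before H37A05.2. It stood at 3035 CPM in L1 and 691 CPM in L2, above 41.4 and 43.2 in dauers, 39.4 and 43.4 in young adult muscle and 29.7 and 15.2 in day 12 muscle. Neurons had 468 and 422 CPM on day 12 and 660 and 576 CPM in young adults, and multiple tissues 2.61 and 1.05 CPM. The L1 and L2 libraries were above all other muscle libraries, and the neuron libraries lay between.

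Larval muscle exceeded young adult muscle at rank 2 by 4.55 ± 1.01 on the log2 scale (SE, edgeR adjusted p = 0.0465), the 1 intergenic site called higher in larvae. Young adult muscle exceeded multiple tissues by 4.34 ± 1.03 (SE, edgeR adjusted p = 0.0177) and was below YA neurons, with a log2 fold change of -3.93 ± 0.98 (SE, edgeR adjusted p = 0.0125). The larval call was lost without the L1 library, without either young adult library, with a replicate block, in a fit to the compared groups alone and by DESeq2's test. The call against multiple tissues was lost with any 1 library left out and by DESeq2's test. The call against YA neurons was lost in 3 of 4 fits without 1 library, with DESeq2's size factors and by DESeq2's test.

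Ranks 3 and 4 start the noncoding genes Y110A7A.24 (I:5139679, -) and Y54G9A.17 (II:13695184, +). The start of Y54G9A.17 lies 1097 bases before kqt-3, a KCNQ-type potassium channel gene. Y110A7A.24 had 15.4 and 75.8 CPM in young adult muscle and 2113 and 2179 CPM in YA neurons, with 0 reads in both multiple-tissue libraries. Young adult muscle stood at least 92.7-fold above multiple tissues (edgeR adjusted p = 0.00128) and YA neurons at least 4360-fold above them (edgeR adjusted p = 1.86e-05). Muscle was below neurons in every young adult library, with a log2 fold change of -5.52 ± 1.19 (SE, edgeR adjusted p = 0.00481), a call lost without young adult muscle replicate 1 and by DESeq2's test.

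Y54G9A.17 had 29.1 and 53.7 CPM in young adult muscle and 1753 and 1655 CPM in YA neurons, with 0 reads in multiple tissues. Its highest muscle level was 1013 CPM in L2. Its log2 fold change of muscle over neurons in young adults was -5.36 ± 1.3 (SE, edgeR adjusted p = 0.011), and this call was lost with any 1 library left out, with DESeq2's size factors and by DESeq2's test. On day 12 the neuron libraries had 261 and 199 CPM, below both young adult ones, and the log2 fold change of -3.17 ± 1.18 did not pass (edgeR adjusted p = 0.757).

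Rank 6, II:3685540 (+), starts the noncoding gene F19B10.14 and was led by muscle. It stood at 269 CPM in L1, 42.3 in L2, 1325 and 2233 in dauers, 192 and 247 in young adult muscle and 306 and 423 in day 12 muscle. Neurons had 24.3 and 18.9 CPM on day 12 and 0 and 16.4 CPM in young adults, and multiple tissues 2.61 and 2.89 CPM. Both dauer libraries were above all others, and every SL1-tag muscle library was above every neuron and multiple-tissue library.

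In young adults F19B10.14 was higher in muscle than in neurons by 4.68 ± 1.29 on the log2 scale (SE, edgeR adjusted p = 0.0233) and higher than in multiple tissues by 6.06 ± 1.37 (SE, edgeR adjusted p = 0.0122). The call against neurons was lost in 3 of 4 fits without 1 library, where its log2 fold change ran from 3.44 to 12.79, and that against multiple tissues in all 4. The dauer excess over young adults, 2.29 ± 1.14, did not pass (edgeR adjusted p = 0.803). In bulk samples, fewer cells that use a site and less of its RNA per cell cannot be told apart.

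Ranks 5, 7 and 10 were read almost only in neurons. Rank 5, X:12373382 (-), lies 1961 bases before rif-1.2 and had 109 and 91.4 CPM in day 12 neurons and 2568 and 3316 CPM in YA neurons, besides 28 reads in day 12 muscle replicate 1 and 1 in dauer replicate 1. Rank 7, II:6465071 (+), lies on the strand opposite dgk-5, a diacylglycerol kinase gene, and had 437 and 441 CPM in day 12 and 2100 and 2135 CPM in YA neurons, besides 1 read in dauer replicate 1. Rank 10, IV:3326960 (+), lies 5216 bases before F42A6.11 and had 182 and 199 CPM in day 12 and 727 and 1103 CPM in YA neurons, with 0 reads in the other 11 libraries.

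All 3 were at 0 reads in young adult muscle and in multiple tissues. Young adult muscle was below YA neurons at least 3809-fold at rank 5, 2741-fold at rank 7 and 1185-fold at rank 10 (edgeR adjusted p = 0.000407, 8.64e-05 and 0.000214), and the rank 5 call was lost without young adult muscle replicate 1. YA neurons were above multiple tissues at least 5978-fold, 4302-fold and 1859-fold at these ranks (edgeR adjusted p = 0.000241, 4.62e-05 and 0.000101). The mean CPM of day 12 neurons was 0.0341 times that of YA neurons at rank 5, 0.207 times at rank 7 and 0.208 times at rank 10, and the libraries did not overlap, but edgeR's adjusted p was 0.516, 0.782 and 0.796.

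Ranks 8, 9, 11 and 12 were also highest in neurons but were read in muscle too. Rank 8, V:18725077 (-), inside the noncoding gene Y17D7C.9, had 146 and 75.6 CPM in day 12 and 1178 and 1410 CPM in YA neurons, and 141 reads in L2 and 1 in young adult muscle outside them. Rank 9, II:12688659 (-), had 134 and 97.7 CPM in day 12 and 1041 and 1180 CPM in YA neurons and 0 to 64.7 CPM in muscle. Ranks 11 and 12 are II:11637164 (+) and V:10698439 (-). Rank 11 had 0 reads in L2 and 11.6 to 26.2 CPM in every other SL1-tag muscle library. Rank 12 had 2.21 CPM in young adult muscle replicate 2, 29.1 CPM in day 12 muscle replicate 2 and 0 reads in the rest of muscle. At rank 11 both day 12 libraries (486 and 715 CPM) stood above both YA libraries (464 and 340 CPM), and at rank 12 day 12 (261 and 703 CPM) and YA (631 and 406 CPM) overlapped. Young adult muscle was below YA neurons at all 4, with log2 fold changes of -11.95, -7.47, -4.93 and -8.60 and edgeR adjusted p-values of 0.00023, 0.00344, 0.0127 and 0.00661. The rank 11 call was lost with DESeq2's size factors and by DESeq2's test, where ranks 8, 9 and 12 kept theirs. Rank 8 kept its call in all 4 fits without 1 library, ranks 9 and 11 in 2 and rank 12 in 1.

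Tests across all sites gave the wider picture. The edgeR fit over 14 SL1-tag libraries and all site types kept 22752 sites, 1267 of them intergenic, and 3646 intergenic sites with reads were too thinly read to test. Among the 1267, 182 were called between YA neurons and multiple tissues at an adjusted p under 0.05, all of them higher in neurons, or 14.4%. Over all tested sites 15.9% were called, 9.8% higher and 6.08% lower. The 182 had no overlap between the 2 groups of libraries, as had 3593 of the 3613 called sites of all types. In multiple tissues 173 of the 182 had 0 reads, as had 1113 of the 1267 tested sites. At those 1113 sites a call lower in neurons could not arise, so the direction of the calls was largely set beforehand. Of the 182, 163 were read in both day 12 neuron libraries. Their log2 fold changes ran from 6.03 to 16.49, and 150 have no current gene on either strand, 14 lie in a protein-coding and 7 in a noncoding gene.

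The 12 strongest sites were ranked by a mean in which YA neurons weigh heavily, so calls at them are no separate support. Over all site types, calls between YA neurons and multiple tissues went only from 3613 with TMM to 3259 with DESeq2's size factors. The intergenic count in this comparison moved more with the processing. It was 73 (71 higher, 2 lower) with DESeq2's size factors, 82 (77 higher, 5 lower) with DESeq2's test and 52 to 68 when 1 library was left out, and 11 of the 12 strongest sites, all but F19B10.14, were called with all libraries and with each library left out.

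Between young adult muscle and YA neurons, 115 of the 1267 sites were called, 4 higher and 111 lower in muscle. A site with 0 reads in young adult muscle could not be called higher there, nor one with 0 reads in YA neurons lower. The split of directions was thus partly set beforehand, and how many sites this covers is not given here. Over all tested sites 9.92% were called, 4.22% higher and 5.7% lower, against 0.316% higher and 8.76% lower among intergenic sites. Trans sites went the other way, with 8.27% higher and 3.18% lower in muscle, and antisense sites had 0.266% higher and 6.72% lower. Leaving out 1 library left 5 to 33 intergenic calls, and DESeq2's test made 48, of which 11 were higher and 37 lower in muscle. The median log2 fold change was 0 over the tested intergenic sites and 0 over all tested sites. With DESeq2's size factors 39 of the 1267 intergenic sites were called, 5 higher and 34 lower in muscle. Calls over all sites went only from 2256 to 2139. The contrast of 8.76% with 5.7% thus rests on TMM scaling and is not read as a trait of intergenic sites.

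**Figure D5:**
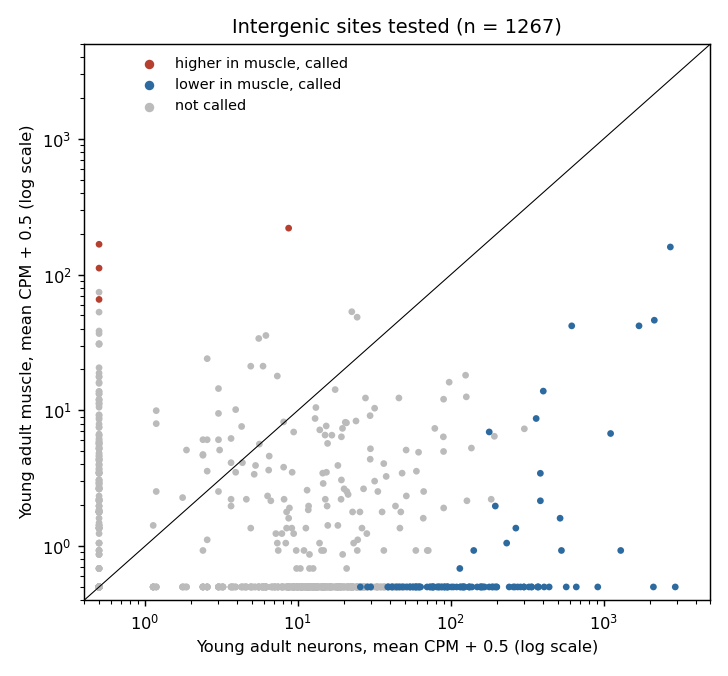
Mean level of each of 1267 tested intergenic sites in young adult muscle (vertical) and young adult neurons (horizontal), as CPM + 0.5 on log axes, with called sites coloured and the diagonal marking equal levels. The 4 sites higher in muscle and the 111 lower in muscle lie far from the diagonal, and many of the lower ones sit along the bottom edge, where muscle had 0 reads.

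The 4 sites higher in young adult muscle than in YA neurons were F19B10.14, the mlp-1 upstream site, II:5599929 (+) and II:5701807 (+). II:5599929 starts the noncoding gene C17G10.14. It had 130 and 92.0 CPM in young adult muscle and 0 reads in all neuron and multiple-tissue libraries, which puts muscle at least 56.5-fold above neurons (edgeR adjusted p = 0.0167) and 226-fold above multiple tissues (edgeR adjusted p = 0.0152). II:5701807, 146 bases downstream of C18A3.12, had 60.0 and 70.3 CPM in young adult muscle and 0 reads in neurons and multiple tissues, at least 33.1-fold above neurons (edgeR adjusted p = 0.0422). With 1 library left out, no more than 1 intergenic site was called higher in muscle than in neurons: F19B10.14 kept its call in 1 of 4 such fits and the other 3 sites in none. II:5701807 was also lost without a filter and with a replicate block. II:5599929 and II:5701807 were read in L2 and not in L1, and both had their highest level in young adults.

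Young adult muscle against multiple tissues gave 13 calls, 12 higher and 1 lower, or 1.03% of the tested intergenic sites. Over all tested sites 3.17% were called, 2.28% higher and 0.897% lower, so the intergenic share was below the background. The 12 higher sites included all 4 noncoding starts called, Y110A7A.24, Y54G9A.17, F19B10.14 and C17G10.14. Y110A7A.24 and Y54G9A.17 remained called with each library left out, and the other calls described here did not. With 1 library left out 2 or 3 sites were called. The lower site, V:11816142 (-), had 0 reads in all muscle libraries, 16.1 and 17.9 CPM in multiple tissues, 200 and 214 CPM in day 12 neurons and 193 and 132 CPM in YA neurons. Muscle was at least 22.0-fold below multiple tissues there (edgeR adjusted p = 0.0287), a call lost in 3 of 4 fits without 1 library and with DESeq2's size factors or test.

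Stage and age gave few calls in the same fit. Larval against young adult muscle had 2 calls, rank 2 and the mlp-1 upstream site, or 0.158% of the tested intergenic sites, where 0.426% of all sites were called, 0.0659% higher and 0.36% lower. Dauer against young adult muscle had 0 calls by edgeR and 0 by DESeq2, with 58 sites at an unadjusted p under 0.05 and 0.0308% of all sites called (0.0176% higher, 0.0132% lower). Day 12 against young adult muscle had 0 by both tools, with 88 at an unadjusted p under 0.05 and 0.044% of all sites called (0.0308% higher, 0.0132% lower). Day 12 against YA neurons had 0 by both tools, with 60 at an unadjusted p under 0.05 and 0.0044% of all sites called, all of them higher. An edgeR fit to the neuron groups alone, in contrast, called 75 of 290 intergenic sites between day 12 and YA neurons, 27 higher and 48 lower on day 12, and 1092 of all sites. How many sites of all types that fit tested is not given here. The intergenic calls in it therefore have no background share and are not read as particular to intergenic sites. The fit over all groups had 6 residual degrees of freedom and a common biological coefficient of variation of 1.36.

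Sites with at least 10 reads in every library of a group numbered 94 in day 12 neurons, 265 in YA neurons, 94 in dauers, 52 in young adult muscle, 58 in day 12 muscle and 31 in multiple tissues. The lists of day 12 and YA neurons shared 76 sites, 80.9% of the first and 28.7% of the second. Young adult muscle and YA neurons shared 15, which is 28.8% of the muscle list and 5.66% of the neuron list. Of the 265 sites, 236 had 0 reads in multiple tissues, and 113 had 0 reads in multiple tissues and in all 8 SL1-tag muscle libraries. The same counts were not made for other site types, so neither these nor the shared lists can be called particular to intergenic sites. These counts depend on depth, which was 164667 to 793156 site reads in neurons and 571844 to 11544706 in SL1-tag muscle.

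Multiple tissues had their own leading site. I:4769063 (-) starts the long intergenic noncoding RNA gene M04F3.7 and took 9.04 and 11.3% of intergenic reads in those libraries. It had 38.5 and 67.0 CPM in young adult muscle, 105 and 459 CPM in day 12 muscle, 15.0 and 29.0 CPM in YA neurons and 68.8 and 87.4 CPM in multiple tissues, and day 12 muscle replicate 2 was the highest library. None of its comparisons passed, and the smallest edgeR adjusted p was 0.306, for YA neurons against multiple tissues.

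The SL2-tag muscle library read few intergenic sites. Its intergenic share was 0.156% of 2595477 site reads (exact Clopper-Pearson 95% interval 0.152 to 0.161%), below the 0.264 to 1.44% of the SL1-tag muscle libraries. With 1 library there is no test. All of its 4056 intergenic reads fell on 10 sites, none of them among the 12 strongest, and 5 of the 10 were also read in SL1-tag muscle. The leading one, II:9418421 (+), took 1554 reads, 38.3%, with 5 and 288 reads in the dauers and 0 in the other 6 SL1-tag muscle libraries. It lies 359 bases downstream of M176.3 and is now inside M176.4, and its near neighbour II:9418438 (+), 376 bases downstream of M176.3, took 399 reads.

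V:9499529 (+) and V:9499589 (+), 301 and 361 bases downstream of K06A4.3 and before swt-5, a SWEET-family sugar transporter gene, took 687 and 652 reads. I:4172347 (+), 142 bases downstream of R12E2.16, took 275 reads. Of the 10 sites, 6 lie within 500 bases downstream of the upstream gene and they hold 89.9% of the library's intergenic reads. In SL1-tag muscle the same was true of 144 of 1908 sites, 7.55%, with 5.63% of reads. The median distance to the upstream gene was 410 bases for the sites of the SL2-tag library and 4315 bases for those of the SL1-tag muscle libraries.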

How the data were processed

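Tagged RNA was pulled down with a probe against the tag, reverse transcribed, amplified by PCR in 2 rounds, cut by Tn5 and sequenced, per the labels' protocols. Trimmomatic, TopHat2 and DESeq are the tools listed per the submitters' processing notes, with versions and genome build not given in the sources used here. The deposited tables hold the authors' raw whole-number counts per acceptor site and per gene, and 3 per-sample columns of each that match no library of the series were not used. Site positions were compared with the WBcel235 annotation (Ensembl release 115), and a site was called at a start within 3 bases. Small RNA genes, such as piRNA, microRNA, snoRNA, snRNA, tRNA and rRNA genes, were left out when overlapping and next genes were sought.

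The counts of all 69542 sites were tested with edgeR 4.0.16 (R 4.3.3), with TMM and filterByExpr. A quasi-likelihood F test over 14 SL1-tag libraries in 8 groups was followed by Benjamini-Hochberg adjustment over 22752 sites at 0.05. The code was also run on simulated counts. Their spread was lower than in these data, where the common biological coefficient of variation was 1.36, so that run does not gauge the calls given here. SE is the absolute log2 fold change over the square root of F. Folds against groups at 0 use 3 reads over the group. Replicates are labelled biological, and their numbers did not pair samples (correlations of deviations -0.0888 to 0.0155 over 15 group pairs). Read shares were compared by exact permutation with SciPy 1.17.1.

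Sites are named if they rank in the first 12 by mean CPM, lead a group, or are among the 4 with the smallest p in a direction of a comparison. Sites at gene starts and in the SL2-tag library are named after their values were seen. Members and lists were chosen with earlier results of these data known. Alternatives were DESeq2's size factors and test (DESeq2 1.42.0), no filter, a filter of 50 reads in 2 libraries, a replicate block, only the groups compared, other denominators and leaving out each library. The age by tissue difference and the share without dauer replicate 2 were added after seeing the data.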

Additional observations from a re-analysis of the deposited data

Results flagged for a closer look

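The change of the intergenic read share with age differed in direction between the tissues: day 12 stood 1.13 percentage points above young adult in muscle and fell by 0.907 points in neurons, a difference of 2.04 points. It is listed because every day 12 library moved one way in muscle and the other way in neurons. The difference was tested by exact permutation within tissues (p = 0.0556, the smallest that 36 arrangements allow). Per site, edgeR's test of the same difference called 0 of 1267 intergenic sites, with 52 at an unadjusted p under 0.05, and 18 of all 22752 tested sites. DESeq2 was not run on this difference. Day 12 animals of both tissues had received fluorodeoxyuridine.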

How the results depend on the processing

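The 41 called pairs of a named site and a comparison gave 410 values under other settings or without 1 library. None of these changed sign, 315 still passed and 95 did not, and 18 of the 41 pairs passed throughout. The counts were less stable. With DESeq2's size factors 8 intergenic sites were called in young adult muscle against multiple tissues, 73 in young adult neurons against multiple tissues and 39 in young adult muscle against neurons, where TMM gave 13, 182 and 115. Over all sites these comparisons had 554, 3259 and 2139 calls with the size factors and 722, 3613 and 2256 with TMM. DESeq2's Wald test gave 82 in neurons against multiple tissues and 48 in muscle against neurons, and lowered the log2 fold change of neurons over multiple tissues at X:12373382 to 13.68, against 16.49 by edgeR. Without a filter 28 were called in muscle against multiple tissues, 177 in muscle against neurons, 13, 2 and 5 for day 12 muscle, day 12 neurons and dauers against young adults, and 16 in larvae. Over all sites that fit called 1286, 2992, 536, 109, 154 and 447 in the same order. The filter of 50 reads in 2 libraries gave 111 in neurons against multiple tissues and 1 in day 12 muscle, with 183 intergenic sites tested. Over all sites it gave 3231 and 121 in these comparisons. Fits to the groups compared alone, which test fewer sites, gave 90 of 98, 370 of 370 and 303 of 326 in the tissue comparisons, 75 in day 12 neurons and 0 in larvae. The filter in those fits saw only the compared groups, so a site could pass through the group where it is high. Shares over all sites are not given for those fits, for DESeq2's Wald test or for the fits without 1 library. Their counts are therefore not read as a trait of intergenic sites. Leaving out 1 library gave 2 to 3, 52 to 68 and 5 to 33 calls in the tissue comparisons, 0 in day 12 muscle, 0 in day 12 neurons, 0 to 6 in dauers (6 without dauer replicate 1) and 0 to 1 in larvae. The causes were not tested.

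The replicate numbers did not pair the samples. With a replicate block 15, 145 and 97 sites were called in the tissue comparisons, 1 in day 12 muscle, 1 in day 12 neurons, 0 in dauers and 2 in larvae, where V:13639995 lost its call and the mlp-1 upstream site kept it. Counts over all sites are not given for the block, so these are not read as a trait of intergenic sites.

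The difference in read share between muscle and neurons was -3.387 to -2.995 points with 1 library left out and -3.12 (past the threshold) with all SL1-tag muscle libraries, and that between tissue promoters and U2-3 was 1.63 to 2.03. Day 12 against young adult had no stable sign: 0.113 points, -0.303 over trans and intergenic reads, -0.180 over sites with at least 10 reads and -0.592 to 0.860 with 1 library left out. Ranking by summed reads kept 8 of the 12 strongest sites, and ranking over the SL1-tag groups kept all 12. Depth limits the day 12 neuron libraries most, where 3 reads are 18.2 and 9.45 CPM. Sequence motifs at the sites were not analysed here.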
